A study of Mus musculus with 6 samples.

Results

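The small leucine-rich proteoglycans are matrix proteins built on a short core of leucine-rich repeats, and 10 of their genes, *Fmod*, *Dcn*, *Bgn*, *Lum*, *Ogn*, *Aspn*, *Omd*, *Prelp*, *Kera* and *Epyc*, were chosen by name and examined in the proximal incisor mesenchyme after loss of *Arid1b*. All 10 were found among the 19270 genes of the authors' table. Total RNA was sequenced in 3 control and 3 mutant libraries, from mice at 1 month of age and 4 days after tamoxifen. The study's methods do not say whether each library came from 1 mouse. The mutants carried Gli1-CreER and floxed *Arid1b* alleles (Gli1-CreER;Arid1bfl/fl in the labels), so the deletion takes place in *Gli1*-expressing cells of the incisor and their descendants, in the mesenchyme and also in the epithelium. Controls are called wild type in the labels and tamoxifen-treated Arid1b fl/fl mice in the study's methods, and both groups received tamoxifen. The comparison addresses what the loss of ARID1B, a DNA-binding subunit of the BAF chromatin remodelling complex, does to the incisor mesenchyme within days.

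The mouse incisor grows throughout life, and stem cells in its proximal mesenchyme supply the pulp and the odontoblasts that lay down dentin. Small leucine-rich proteoglycans bind collagen and set how fibrils assemble, grow and pack, and several hold growth factors of the TGF-β family in the matrix. Class I members such as decorin and biglycan carry chondroitin or dermatan sulfate chains, class II members such as fibromodulin and lumican carry keratan sulfate or sulfated tyrosines, and class III holds mimecan (*Ogn*) and epiphycan (*Epyc*). In teeth these proteins are found in predentin, pulp and the periodontal ligament.

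Values are the authors' means of a normalized signal per group, which carry no SD, because values per gene and mouse were not analysed here. The spread between mice is therefore unknown, no difference was tested, and higher and lower below describe these 2 means alone. The signal was taken as the number of reads plus 1 times a factor per library. The lowest group mean equals the mean of the 3 library minima to within 3.17e-08 in the controls and 1.23e-08 in the mutants. This equality would hold for any added constant, so the value of 1 is an assumption. Under this assumption the libraries held about 37123643 to 49594469 reads on these genes. Each ratio below is followed by the 95% exact interval that its reads allow, which covers counting error only. Upper quartiles lay between 44.57 and 44.58 in all 6 libraries. The targeted gene *Arid1b* averaged 97.6 in control and 38.03 in mutant libraries. The X-linked transcript *Xist* averaged 3368 in control and 814 in mutant libraries, while the Y-linked *Ddx3y* was at its lowest possible value, 0.0259, in the controls and at 65.3 in the mutants. *Eif2s3y*, *Uty* and *Kdm5d*, the other Y-linked genes listed, lay between 0.0259 and 0.0434 in the controls and between 25.3 and 29.8 in the mutants. The mutant means thus held both *Xist* and Y-linked transcripts, whereas the control means held *Xist* with almost no Y-linked signal. The labels give no sex. Sex-linked transcripts differed between the groups, and effects of sex and of genotype cannot be told apart here.

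Of the 10 genes, 8 had a lower and 2, *Ogn* and *Epyc*, a higher mean in the mutants, whereas relative to the median of general fibroblast genes 5 were lower and 5 higher. With a mean over both groups of at least 10 as the minimum for a call, 7 genes remained, 6 lower and 1 higher in the mutants. Among these, *Fmod* and *Prelp* were lower by more than 1.5-fold, and *Ogn* was higher by more than 1.5-fold. *Prelp* was no longer past the fold when 10 was added to both means, and neither *Fmod* nor *Prelp* was past it relative to general fibroblast genes. Of all 10311 genes with such a mean, 49.7% had a lower mean in the mutants. Past 1.5-fold were 0.912% in the lower direction and 2.15% in the higher direction. Restricted to genes averaging 100 or more, a level that 6 of the proteoglycan genes reached, *Fmod* and *Ogn* were past the fold, where 0.486% of 2057 genes were lower and 1.46% higher. The median log2 ratio of mutant to control over the 7 genes was −0.32, against 0.00066 over all 10311 genes and −0.02 over the 2057 genes of higher level. The summed signal of the 10 genes was 5515 in control and 4366 in mutant libraries, a ratio of 0.792, which corresponds to 0.539% and 0.445% of all signal. The plot of the group means places *Lum*, *Fmod*, *Bgn* and *Dcn* at the top in both groups, all with the mutant mean to the left of the control mean, and *Ogn* as the sole well-measured gene with the reverse order.

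**Figure D1:**
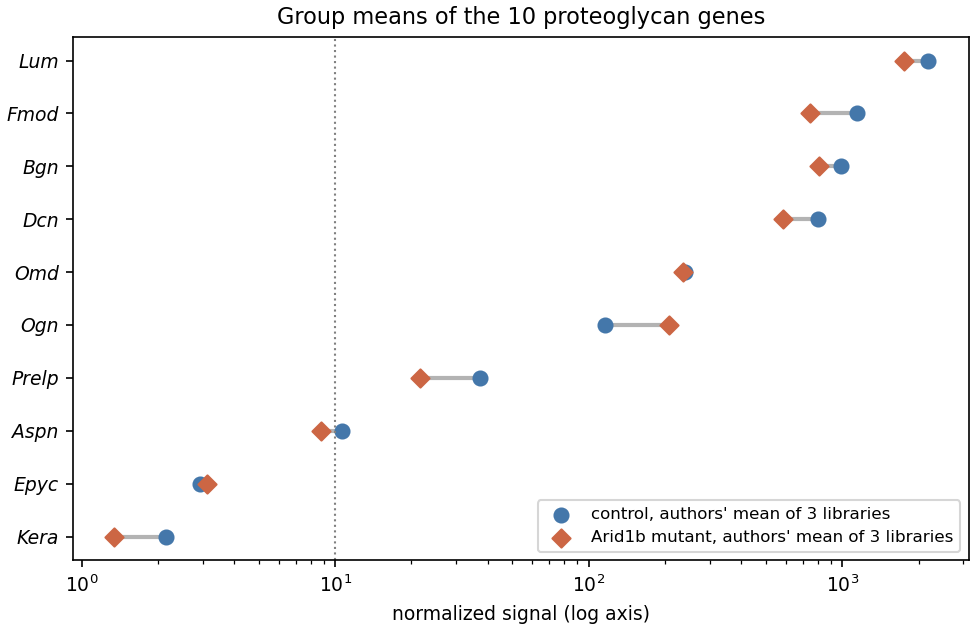
Authors' mean normalized signal of each of the 10 proteoglycan genes (log axis) in 3 control libraries (circles) and 3 Arid1b mutant libraries (diamonds), joined by a grey line. No error bars are drawn because the spread between mice is unknown. The dotted line marks a signal of 10. Ogn stood at 116 in control and 207 in mutant libraries, and Fmod stood at 1140.15 and 749.

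The promoters of 4 of these genes are shown. They are those of *Ogn*, *Fmod* and *Prelp*, the genes past both the minimum level and 1.5-fold, and of *Omd*, which lies next to *Ogn* and had nearly equal means. Each is the 250 bases before the RefSeq start on GRCm38.p6, read 5′ to 3′ on the strand of the gene, at chr13:49607765-49608014 (plus strand) for *Ogn*, chr13:49582212-49582461 (plus) for *Omd*, chr1:134037004-134037253 (plus) for *Fmod* and chr1:133921402-133921651 (minus) for *Prelp*. Capitals mark matches on either strand to 1 of 8 motifs searched, namely TATAAA (the TATA box), GGGCGG (GC box), CATCTG and CAGCTG (E boxes), TGANTCA (AP-1), TGTGGT (the RUNX core), CAGAC (a SMAD half-site) and GACCACCCA (a GLI site).
Ogn: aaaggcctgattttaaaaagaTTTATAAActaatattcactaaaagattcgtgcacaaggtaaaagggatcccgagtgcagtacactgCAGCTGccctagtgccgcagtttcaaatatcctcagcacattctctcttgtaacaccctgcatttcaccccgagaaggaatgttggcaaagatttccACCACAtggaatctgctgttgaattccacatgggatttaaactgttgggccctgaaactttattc
Omd: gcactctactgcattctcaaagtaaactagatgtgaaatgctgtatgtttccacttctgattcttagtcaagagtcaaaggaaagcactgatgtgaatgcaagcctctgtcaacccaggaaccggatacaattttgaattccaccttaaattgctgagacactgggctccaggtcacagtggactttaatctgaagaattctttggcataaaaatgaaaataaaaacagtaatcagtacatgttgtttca
Fmod: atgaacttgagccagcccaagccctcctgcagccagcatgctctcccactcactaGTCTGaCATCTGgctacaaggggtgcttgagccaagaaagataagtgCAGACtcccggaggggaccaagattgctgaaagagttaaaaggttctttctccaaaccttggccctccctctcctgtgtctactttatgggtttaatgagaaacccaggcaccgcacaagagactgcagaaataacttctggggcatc
Prelp: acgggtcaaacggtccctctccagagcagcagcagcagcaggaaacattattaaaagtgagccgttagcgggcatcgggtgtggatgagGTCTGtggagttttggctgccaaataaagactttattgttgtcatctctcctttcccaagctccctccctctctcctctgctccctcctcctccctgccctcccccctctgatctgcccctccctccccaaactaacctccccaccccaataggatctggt
The *Ogn* promoter held TATAAA at −229 and −227, read on opposite strands and overlapping, CAGCTG at −162 and TGTGGT at −65, counted in bases from the start to the first base of the match. The *Fmod* promoter held CAGAC at −195 and −148 and CATCTG at −189, and that of *Prelp* CAGAC at −161. The *Omd* promoter held none of the 8 motifs. Among all 32851 promoters of the RefSeq table, TATAAA was present in 12.4%, CAGCTG in 13%, TGTGGT in 14%, CATCTG in 14.4% and CAGAC in 42.2%. GGGCGG, held by *Bgn* alone of these genes and by 32.7% of all promoters, occurred there at −34, −10 and −6, and the *Bgn* promoter also held CAGCTG at −102, while *Aspn* held TATAAA at −207 and −178. TGANTCA (6.75% of all promoters) and GACCACCCA (0.225%) were in none of the 9 promoters listed for 8 of the 10 genes. CAGAC, the most widespread of the 8 motifs, was in 2 of these 9 promoters, those of *Fmod* and *Prelp*. *Bgn*, *Aspn*, *Omd* and *Kera*, which also had a lower mean in the mutants, did not hold it. GC content was 55.6% for *Prelp*, 51.2% for *Fmod*, 42% for *Ogn* and 38.4% for *Omd*, with a median of 52.4% over all promoters. *Dcn* and *Lum* had no promoter in the table used.

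Fibromodulin, a keratan sulfate proteoglycan that binds collagen I and sets the width of its fibrils, was among the most abundant transcripts of the tissue. The *Fmod* mean was 1140.15 in the controls and 749 in the mutants, which placed its control level 47th among all genes. The ratio was 0.657 (0.651 to 0.662), 1.52-fold lower, from about 132267 and 97356 reads. Of the 10311 genes, 83 (0.805%) had a ratio as low or lower, and of the 2057 genes of higher level, 9 (0.438%). *Fmod* lies on chromosome 1 from 134037254 to 134048277 on the plus strand of GRCm38 and has 3 exons in its longest coding transcript. *Prelp*, which encodes the heparin-binding proteoglycan prolargin, lies 5′ of it on the same chromosome from 133910304 to 133921414 on the minus strand. The *Prelp* mean was 37.4 in the controls and 21.6 in the mutants, a ratio of 0.578 (0.551 to 0.606) or 1.73-fold lower, and 44 genes (0.427%) were as low or lower. The interval of *Prelp* is wider because it rests on about 4334 and 2805 reads, and it stays below that of *Fmod* on counting error alone.

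Lumican, decorin and biglycan, the other abundant members, were lower in the mutants by less than 1.5-fold. *Lum*, which encodes a keratan sulfate proteoglycan needed for regular collagen fibrils in the cornea and skin, had the highest signal of the 10 genes, 2177 in the controls and 1748 in the mutants, with a ratio of 0.803 (0.798 to 0.807). Decorin binds collagen and TGF-β and carries a single chondroitin or dermatan sulfate chain, and the *Dcn* mean was 799 in the controls and 583 in the mutants, a ratio of 0.730 (0.723 to 0.737). For *Bgn*, which encodes the bone and dentin matrix proteoglycan biglycan, the means were 989 and 809.6, a ratio of 0.818 (0.812 to 0.825). *Bgn* lies on chromosome X from 73483602 to 73495933, and its nearest measured neighbours there were *Haus7*, with 14.2 in control and 13.4 in mutant libraries, and *Atp2b3*, at 6.18 and 8.17. Ratios as low or lower were found for 189 genes (1.83%) in the case of *Dcn*, 456 (4.42%) for *Lum* and 551 (5.34%) for *Bgn*. The intervals of *Dcn*, *Lum* and *Bgn* do not overlap that of *Fmod*, but whether these ratios differ beyond the spread between mice was not tested. On a log2 scale *Dcn* stood at −0.45, *Lum* at −0.32 and *Bgn* at −0.29, whereas *Fmod* stood at −0.61 and *Prelp* at −0.79.

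Mimecan, also named osteoglycin, is a class III member known from bone and cornea. Its gene *Ogn* averaged 116 in control and 207 in mutant libraries, the reverse of the order seen for *Fmod*. The ratio was 1.79 (1.75 to 1.83), or 0.84 on the log2 scale, from about 13418 and 26943 reads. A ratio as high or higher was found for 109 of the 10311 genes (1.06%) and for 15 of the 2057 genes of higher level (0.729%). *Omd*, which encodes the bone keratan sulfate proteoglycan osteomodulin, averaged 239.7 in control and 235 in mutant libraries, a ratio of 0.979 (0.963 to 0.995), and 39.5% of genes were as low or lower. *Aspn*, which encodes asporin, a collagen-binding protein without glycosaminoglycan chains, had means of 10.7 and 8.82 and a mean over both groups of 9.75, just under the minimum for a call, with a ratio of 0.825 (0.760 to 0.895). *Kera* and *Epyc*, known from the cornea and from growth cartilage, were barely detected. The *Kera* mean was 2.15 in the controls and 1.34 in the mutants (ratio 0.625, 0.511 to 0.763), and the *Epyc* mean was 2.92 and 3.11 (ratio 1.07, 0.920 to 1.24), an interval that includes 1.

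**Figure D2:**
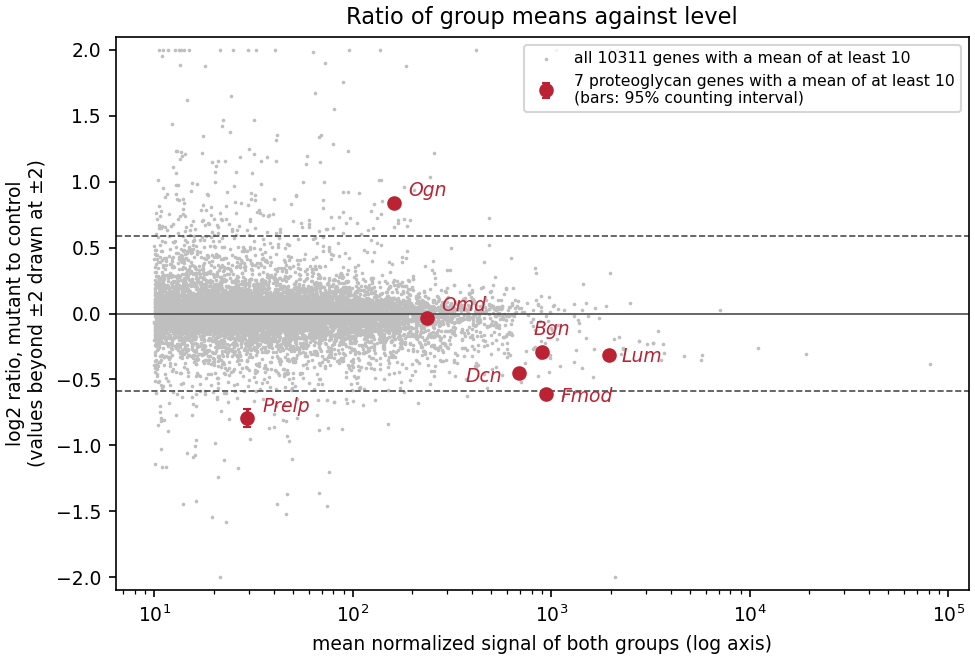
Log2 ratio of the mutant mean to the control mean (vertical axis, values beyond 2 drawn at the edge) against the mean normalized signal of both groups (log axis). Grey points are the 10311 genes averaging 10 or more and red points the 7 proteoglycan genes among them, with 95% counting intervals that are smaller than the symbol for all but Prelp. Dashed lines mark 1.5-fold. Prelp and Fmod lie under the lower line and Ogn above the upper one.

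Levels of different genes were compared per kilobase of the union of annotated exons, since the exons of these genes sum to between 2.25 and 6.10 kb. *Lum* led in both groups, at 889 units of signal per kilobase in the controls and 714 in the mutants, followed by *Fmod* at 345 and 226 and *Bgn* at 162 and 133. *Dcn*, at 137 and 99.9, ranked next in the controls, and *Omd*, at 107 and 104, took that place in the mutants. *Ogn*, at 45.1 and 80.8, followed in both groups, then *Prelp*, at 10.3 and 5.97. *Aspn* (4.54 and 3.75), *Epyc* (1.14 and 1.22) and *Kera* (0.942 and 0.589) closed the order. *Lum* and *Fmod* thus made up most of the family's transcripts by this measure. Whether neighbours in this order, such as *Dcn* and *Omd* in the mutants, differ beyond the spread between mice is unknown. The order also depends on the length used. In the mutants, *Dcn* stood above *Omd* per kilobase of the longest transcript (124 and 104) and of coding sequence (549 and 185), so the exchange of these places was seen with the union of exons alone among the 3 lengths. Per kilobase of the longest transcript *Bgn* stood at 371 and *Fmod* at 365 in the controls, and at 304 and 239.99 in the mutants.

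As a share of the summed signal per kilobase of the 10 genes, *Lum* held 52.3% in the controls and 52.1% in the mutants. The *Fmod* share was 20.3% against 16.5% in the mutants, and the *Ogn* share 2.65% and 5.90%. The share of *Omd* was 6.26% and 7.61%, that of *Bgn* 9.53% and 9.69%, and that of *Dcn* 8.04% and 7.29%. *Lum*, *Fmod*, *Bgn* and *Dcn* together made up 90.1% and 85.6%. By class, class I (*Dcn*, *Bgn*, *Aspn*) held 17.8% and 17.3%, class II (*Fmod*, *Lum*, *Omd*, *Prelp*, *Kera*) 79.4% and 76.8%, and class III (*Ogn*, *Epyc*) 2.72% and 5.99%. The shares of *Bgn*, *Dcn* and *Omd* move by more than 1.5 times with the length used: in the controls *Bgn* held 18.9% by the longest transcript, and by coding sequence *Dcn* held 14.6% and *Omd* 3.65%. With these other lengths too, the *Fmod* share was lower and the *Ogn* share higher in the mutants. The quotient of *Fmod* to *Ogn* per kilobase was 7.65 in the controls and 2.80 in the mutants, that of *Fmod* to *Lum* 0.388 and 0.317, and that of *Ogn* to *Omd* 0.423 and 0.774. The make-up of the family therefore differed between the 2 sets of means mainly in *Fmod* and *Ogn*, while *Lum* and *Bgn* kept nearly the same share.

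**Figure D3:**
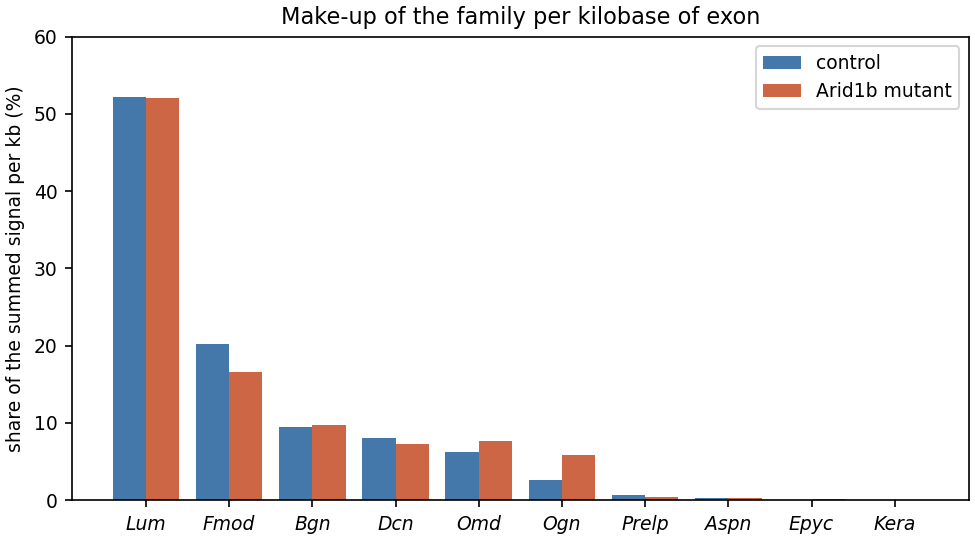
Share of each gene (vertical axis, percent) in the summed signal per kilobase of exon of the 10 proteoglycan genes, in the authors' control means and Arid1b mutant means. No error bars are drawn because the spread between mice is unknown. Lum holds 52.3% and 52.1%, Fmod 20.3% and 16.5%, and Ogn 2.65% and 5.90%.

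All members other than *Bgn* lie in 3 genomic clusters. *Prelp* and *Fmod* span 138.0 kb of chromosome 1, and these neighbours had the lowest log2 ratios among the proteoglycan genes past the minimum level. *Dcn*, *Lum*, *Kera* and *Epyc* span 202.8 kb of chromosome 10, from 97479609 to 97682454, with log2 ratios from −0.68 (*Kera*) to 0.09 (*Epyc*). *Aspn*, *Omd* and *Ogn* span 80.1 kb of chromosome 13, from 49544443 to 49624501, with −0.28 for *Aspn*, −0.03 for *Omd* and 0.84 for *Ogn*. The genes measured around *Ogn* had ratios nearer to 1 than *Ogn* had: *Ecm2*, a leucine-rich repeat matrix gene before *Aspn*, stood at 25.9 in control and 25.8 in mutant libraries, and *Nol8* and *Iars* beyond *Ogn* had log2 ratios of 0.14 and 0.11. *Cenpp*, at 5.30 and 6.21, runs antisense across *Aspn*, *Omd* and *Ogn*, and since it is not given whether strand was used in counting, reads of these genes and of *Cenpp* may not have been separated. On chromosome 1, *Btg2*, an antiproliferative gene next to *Fmod*, stood at 20.2 in the controls and 30.1 in the mutants (log2 ratio 0.57), and *Atp2b4*, before *Prelp*, at 91.3 and 114 (0.32), in the direction opposite to *Fmod* and *Prelp*. *Optc* and *Gm1627*, which lie beside *Prelp* and between *Prelp* and *Fmod*, had means under 1 in both groups. *Gm15851* overlaps *Prelp* and *Gm10754* overlaps *Epyc* on the opposite strand, and neither was in the table.

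**Figure D4:**
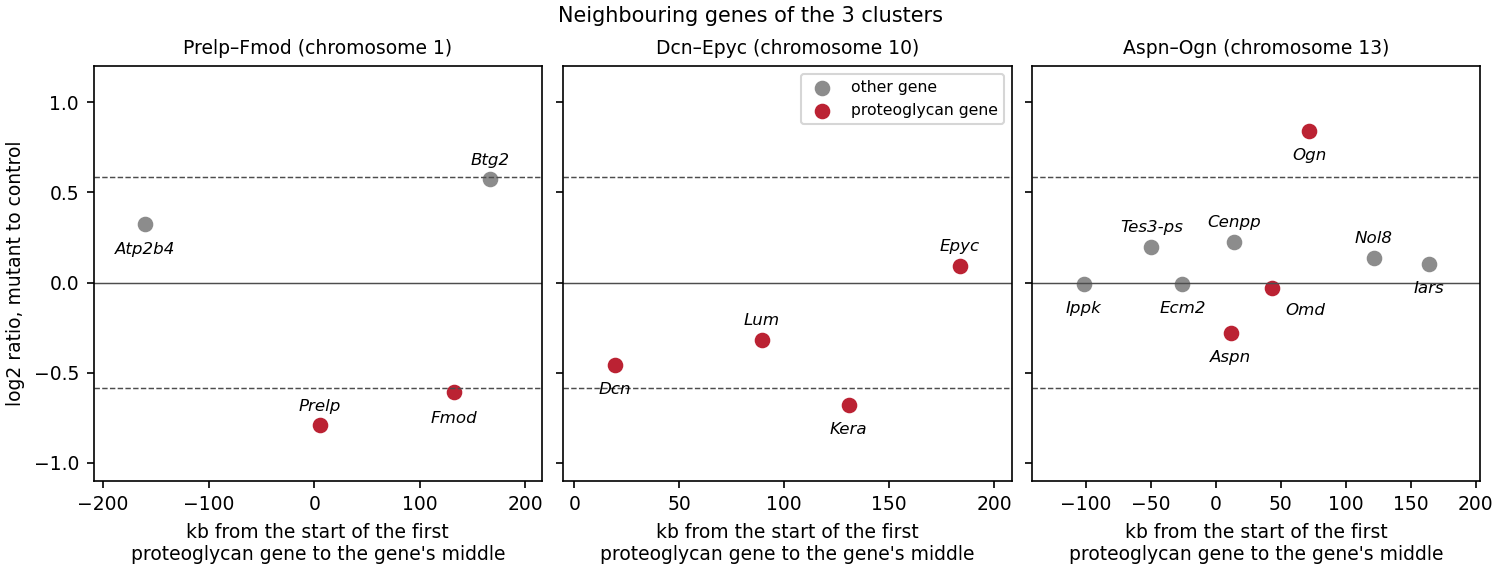
Log2 ratio of the mutant mean to the control mean (vertical axis) by the distance of each gene's middle from the start of the first proteoglycan gene of its cluster (kb), for annotated genes averaging 1 or more around the clusters on chromosomes 1, 10 and 13. Red points are proteoglycan genes and grey points other genes, and dashed lines mark 1.5-fold. Prelp (−0.79) and Fmod (−0.61) lie apart from Btg2 (0.57), and Ogn (0.84) from Nol8 (0.14).

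Genes that act with these proteoglycans were read as lists of ligands, enzymes and receptors. Beside the counts of lower genes below, 49.7% of all 10311 genes past the minimum level had a lower mean in the mutants. Fibrillar collagens, the main ligands of the family, were lower in 9 of the 10 genes past the minimum level, with a median log2 ratio of −0.30 and 1 gene, *Col24a1*, past 1.5-fold (58.8 in the controls, 33.3 in the mutants). *Col1a1*, the most abundant of them, averaged 21211 in control and 17127 in mutant libraries, a log2 ratio of −0.31, and *Col3a1* was the exception at 0.31. Set against *Col1a1*, the log2 ratio of *Lum* differed by −0.01 and that of *Bgn* by 0.02, *Dcn* by −0.15, *Fmod* by −0.30, *Prelp* by −0.48, *Omd* by 0.28 and *Ogn* by 1.15. *Lum* and *Bgn* thus stood at nearly the ratio of *Col1a1*, *Fmod* and *Prelp* below it and *Ogn* above it. Genes of fibril-associated proteins were lower in 5 of 8 (median −0.19), led in level by fibronectin, *Fn1*, at 1469 and 1139.6, and *Thbs2*, which encodes the matricellular protein thrombospondin 2, was higher past 1.5-fold at 98.4 and 154. Genes of collagen processing and crosslinking were lower in 8 of 10 with none past the fold (median −0.16), and the most abundant, *Lox*, a crosslinking enzyme, had 403 and 337. Of 12 large proteoglycans 8 were lower (median −0.10), with *Acan*, the cartilage proteoglycan aggrecan, past 1.5-fold at 30.6 and 14.1 and *Vcan* highest in level at 1788 and 1484. *Ecm2* and *Tsku*, the relatives of the family past the minimum level, had log2 ratios of −0.01 and −0.31, and neither was past the fold.

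The enzymes that build the sugar chains had medians near that of all genes. The 7 genes of the glycosaminoglycan linker had a median of 0.02, with 4 higher and none past the fold, and *Fam20b*, a xylose kinase and the most abundant, stood at 131 and 133. Of 12 genes for chondroitin and dermatan sulfate 9 were lower (median −0.03), *Chst11* was the most abundant at 139 and 138, and *Ust*, a uronyl 2-sulfotransferase, was past the fold at 98.8 and 62.2 (log2 ratio −0.67). Of 4 genes for keratan sulfate 3 were lower (median −0.05), with *B4galt1* highest at 157 and 154, but *Chst1*, the galactose 6-sulfotransferase of keratan sulfate, averaged 8.04 in control and 34.9 in mutant libraries, a log2 ratio of 2.12. *Chst4* and *Chst5*, 2 further sulfotransferases, were not in the table. Tyrosine sulfation genes had a median of −0.02 over 4 genes, 3 of them lower and none past the fold, with *Papss1* highest at 109 and 105. Among 7 proteases that cut these proteins, 4 were higher (median 0.25) and 3 were past the fold: *Mmp13*, a collagenase, at 41.0 in the controls and 138 in the mutants, *Adamts5*, an aggrecanase, at 8.31 and 18.8, and *Mmp9*, a gelatinase, at 9.25 and 16.9. Of all 10311 genes, 2.15% were higher past the fold. *Adamts5* and *Mmp9*, like *Chst1* above, reached the minimum mean of 10 only through the mutant mean. Among proteases averaging 100 or more, 0 were past the fold and the median was −0.09. *Mmp14*, the most abundant protease, stood at 437 and 416. Of 15 receptors and binding partners 7 were higher and 8 lower (median −0.02), *Itgb1* was highest in level at 803 and 818, and *Egfr*, a receptor that decorin binds, was the 1 past the fold, at 12.9 and 24.1.

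**Figure D5:**
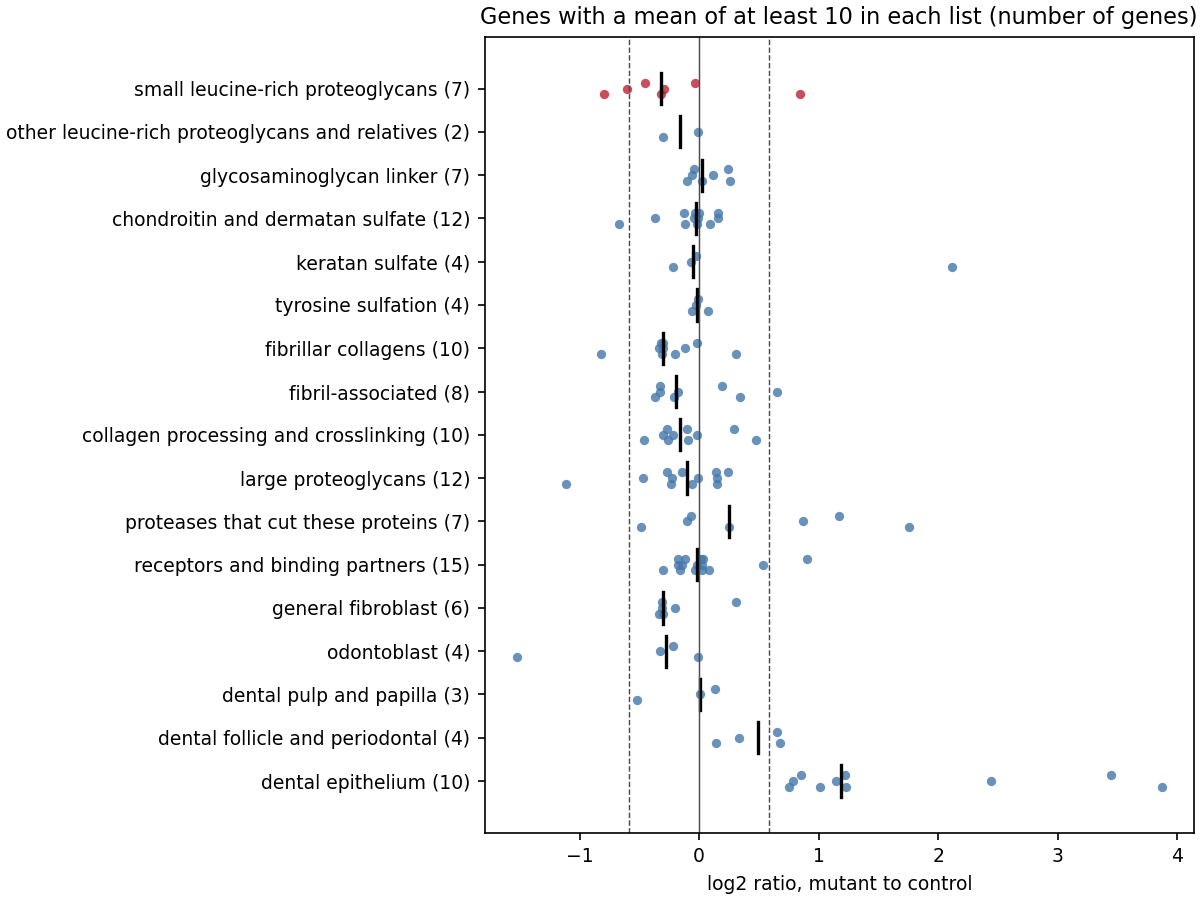
Log2 ratio of the mutant mean to the control mean (horizontal axis) for each gene averaging 10 or more in the proteoglycan family (red), in lists of related genes and in marker lists (blue), with the number of such genes in brackets. Black bars mark medians and dashed lines 1.5-fold. The median of the family is −0.32, close to those of the fibrillar collagens (−0.30) and general fibroblast genes (−0.31), and that of dental epithelium is 1.18.

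In bulk tissue, fewer cells of a type and less RNA per cell cannot be told apart, so markers of the cell types that could be in the sample were read beside the proteoglycans. General fibroblast genes, which share collagens with the list above, were lower in 5 of 6 (median log2 ratio −0.31, none past 1.5-fold), a median close to that of the proteoglycan genes. All 4 odontoblast markers had a lower mean in the mutants (median −0.27), though *Nupr1* was nearly equal at 10.23 and 10.18. Among them, *Dspp*, the main dentin matrix gene, stood at 5179 and 4136, and *Dmp1* was past the fold at 68.1 and 23.7. *Fmod*, a member of the family, was left out of the list of dental pulp markers. Of the 5 dental pulp markers used, 3 had a lower and 2 a higher mean in the mutants, with a median of −0.29. The 3 past the minimum level had a median of 0.01, and none was past the fold. Among these 3, *Igfbp5* was highest at 847 and 928, and *Smoc2*, the 1 that was lower, stood at 208 and 145 (log2 ratio −0.52). All 8 markers of the dental follicle and periodontal tissue had a higher mean in the mutants, *Postn* being the most abundant at 264 and 333. Of the 4 that averaged 10 or more (median 0.49), *Pthlh* (14.5 and 23.2) and *Thbs2* were past the fold, and the summed level of the list was 439 in control and 587 in mutant libraries. These follicle markers were higher in the mutants, as was *Ogn*, and their part in the *Ogn* value was not tested. In dental epithelium, all 10 epithelial genes past the minimum level were higher by more than 1.5-fold (median 1.18), the summed level of the list was 1691 in control and 10462 in mutant libraries, and the enamel matrix gene *Amelx* stood at 362 and 3946. *Ambn* and *Enam*, also enamel matrix genes, stood at 617 and 136 in the controls and at 3360.4 and 1983 in the mutants, and *Krt5*, *Krt14*, *Krt17*, *Cdh1*, *Epcam* and *Shh* had log2 ratios from 0.75 (*Shh*) to 1.23 (*Krt17*). The tissue was dissected as mesenchyme, yet epithelial transcripts were present in both groups, and their part in the proteoglycan ratios was not tested.

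Markers of osteoblasts, vessels, blood cells and other tissues were read in the same way. Of 5 osteoblast markers *Spp1* was past the fold at 38.9 and 99.2, the median was −0.10, and *Bglap* was highest at 882 and 732. Endothelial markers had a median of 0.05 (3 of 5 higher, *Cdh5* at 95.2 and 94.4), perivascular markers −0.17 (3 of 5 lower, *Rgs5* at 411 and 340.1) and macrophage markers 0.20 (5 of 5 higher, *Csf1r* at 84.8 and 97.3), and none of these was past the fold. Of 2 cartilage markers past the minimum level, *Acan* is given above and *Col9a1* stood at 23.8 and 23.3. All 5 erythroid genes were lower, and the 2 past the minimum level were both past 1.5-fold (median −1.496), with *Hbb-bs* at 29.0 and 9.97 and *Hba-a2* at 20.4 and 7.49. No gene of glia or skeletal muscle reached a mean of 10 over both groups, and *Acta1*, the most abundant of the muscle genes, stood at 2.50 and 1.12.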

How the data were processed

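Gene expression was measured by bulk RNA-seq in the proximal mesenchyme of incisors, with 3 control and 3 mutant libraries. Trimming, alignment to mm10 and the group comparison were done by the authors with Partek Flow, and the submitters' processing notes name TopHat2 2.0.8. The counting, the annotation, its use of strand and the normalization are not given in the sources used here. The deposited values used here are the authors' means of a normalized signal per group and the summary of that signal for each library. The 4 columns of the authors' own comparison (p-value, FDR, ratio and fold change) were not used, nor were 2 other numeric columns of the library summary.

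Ratios of the means, their log2 values (no pseudocount), counts past 1.5-fold among genes with a mean over both groups of at least 10, and levels per kilobase were computed. Reads were estimated as 3 times the group mean divided by the mean library minimum, less 3, and the 95% interval of each ratio is the exact Clopper-Pearson interval of those reads. With 1 mean a group, no test was run and the tests planned for values per library could not be applied. A planned comparison of the protein sequences was not run because no protein sequences were at hand. The estimated 37123643 to 49594469 reads per library set the counting error of each value, while the spread between mice is unknown.

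The members and the gene lists were chosen with earlier results of these data known. The genes named are all members, list genes past 1.5-fold, the most abundant gene of each list, genes lying between members and the targeted gene. Neighbours outside the clusters, the remaining sex-linked genes, *Nupr1* and *Col3a1* were added after their values were seen. A few list genes that this rule covers are not reported here. Coordinates and exon lengths are from GENCODE vM21 on GRCm38 (mm10) and promoters from RefSeq on GRCm38.p6. The scripts were tested on simulated data with counting error alone and planted changes well past 1.5-fold. That check covers neither the spread between mice nor calls near the fold. Computations used Python 3.11.15 with pandas 2.3.3, numpy 2.4.6 and scipy 1.17.1, and figures matplotlib 3.10.9. Other filters, folds, pseudocounts, centrings and gene lengths were tried as alternatives.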

Additional observations from a re-analysis of the deposited data

How the results depend on the processing

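No paired analysis was possible because the tables hold 1 mean per group and gene, and for the same reason no library could be left out in turn and no difference could be set against the spread between mice. The count of genes past 1.5-fold depended on the threshold. Among genes averaging 100 or more, and also with a pseudocount of 10, *Prelp* dropped out and 1 gene, *Fmod*, was lower past the fold, and with a fold of 2 no gene was past it in either direction (0 higher, 0 lower). The median log2 ratio was −0.30 with no filter and with minimum means of 1 and of 100. It was −0.24 as a mean and −0.34 as the log2 ratio of the summed means. Centring on the median of the general fibroblast list (−0.31), an alternative chosen after seeing the data that shifts every gene by the same amount, gave 5 genes higher and 5 lower, a median of −0.012, and 0 genes lower past 1.5-fold, while *Ogn* stayed past it at 1.15. Under the alternatives run, 22 further values for the family moved by less than a counting interval or, for counts, by no more than 1.5 times, and no gene past the fold changed sign. Of the values for single genes and lists, 459 stayed within the limits set for each kind of value and 208 moved.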
